A study of Mus musculus with 6 samples.

Results

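Acetylated sites away from gene starts that carried no peak of the enhancer mark H3K4me1 were examined in mouse macrophages. These are the distal H3K27ac summits outside H3K4me1 peaks, chosen by position from the deposited peak lists: the H3K27ac peak of the LPS-treated cells did not reach within 1000 bp of an annotated gene start, and its summit, the base of highest signal, lay in no H3K4me1 peak of the LPS or the PBS cells. Of 4200 LPS H3K27ac peaks, 1241 were promoter peaks and 2959 were distal, and 1696 of the distal peaks (57.3%, 55.5 to 59.1%) met the rule. The other distal summits lay in H3K4me1 peaks of both lists in 754 cases, of the LPS list alone in 289 and of the PBS list alone in 220. Those 1263 distal summits in H3K4me1 and the promoter peaks served for comparison. Because the rule used the H3K27ac list, the H3K4me1 positions and the gene starts, values of these 3 kinds are given as a description.

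The profiles came from bone marrow-derived macrophages (BMDMs) of the C57BL/6 strain, matured for 6 d in medium conditioned by L929 cells, which secrete the macrophage growth factor M-CSF. Cells received lipopolysaccharide (LPS), a component of the bacterial wall, or PBS as the unstimulated control for 1 h. CUT&RUN, in which an antibody directs a nuclease to its mark and the released fragments are sequenced, was performed with 1 library per antibody and treatment, and the methods give the study's mice as males of 7 to 10 weeks. There were therefore no replicates, no test between treatments was possible, and the intervals given in parentheses after shares are 95% Wilson intervals that cover counting error only. The LPS list held 73049 and the PBS list 64758 H3K4me1 peaks, whereas H3K27ac gave 4200 peaks after LPS and 52 after PBS. Peaks of H3K4me1 lay within 10 kb of 10 of 10 macrophage marker genes in the LPS list and 8 of 10 in the PBS list, and of 2 of 10 markers of other cells (Ins2 and Pax5) in both.

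H3K4me1 is written by the MLL3 and MLL4 methyltransferases and marks enhancers, including those that are poised but inactive. H3K27ac is added by p300 and CBP and marks enhancers and promoters that are active. At an active promoter, trimethylation of the same H3K4 residue takes the place of monomethylation next to the start site, and acetylated nucleosomes reach into the first part of the transcribed gene. In macrophages, PU.1 and C/EBP factors open most enhancers, and LPS signaling through TLR4 brings NF-kB and AP-1 to them within minutes.

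The sequences of 7 summits are shown, all from the stronger members with 11 fragments or more: the strongest site, sites with the motif of a macrophage or LPS-activated factor, the strongest site of the Clec4d cluster, a member of the TNF-9 enhancer and the strongest site over 100 kb from any H3K4me1 peak. Each is the plus strand of GRCm38, with the summit at the center of 201 bp, and capitals mark exact matches to the 15 motifs described further on.
Upstream of Neat1, chr19:5847418-5847618: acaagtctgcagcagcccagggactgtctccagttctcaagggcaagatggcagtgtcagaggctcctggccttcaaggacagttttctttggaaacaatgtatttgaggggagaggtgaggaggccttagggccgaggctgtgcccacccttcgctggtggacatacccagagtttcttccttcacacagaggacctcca
Trim25 intron, chr11:89000550-89000750: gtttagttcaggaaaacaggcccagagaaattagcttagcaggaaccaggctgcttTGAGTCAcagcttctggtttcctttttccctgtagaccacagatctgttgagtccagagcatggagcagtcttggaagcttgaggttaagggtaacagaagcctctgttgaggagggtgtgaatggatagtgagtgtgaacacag
Clec4d intron, chr6:123265747-123265947: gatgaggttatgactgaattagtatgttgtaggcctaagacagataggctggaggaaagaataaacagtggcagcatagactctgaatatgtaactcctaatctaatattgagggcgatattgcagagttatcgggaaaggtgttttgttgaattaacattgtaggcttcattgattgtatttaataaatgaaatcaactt
Tns3 upstream, chr11:8759968-8760168: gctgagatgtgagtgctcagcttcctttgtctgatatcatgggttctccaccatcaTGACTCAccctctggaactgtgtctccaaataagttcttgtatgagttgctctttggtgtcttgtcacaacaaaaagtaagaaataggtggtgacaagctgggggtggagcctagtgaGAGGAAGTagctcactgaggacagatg
Tex44 downstream, chr1:86434667-86434867: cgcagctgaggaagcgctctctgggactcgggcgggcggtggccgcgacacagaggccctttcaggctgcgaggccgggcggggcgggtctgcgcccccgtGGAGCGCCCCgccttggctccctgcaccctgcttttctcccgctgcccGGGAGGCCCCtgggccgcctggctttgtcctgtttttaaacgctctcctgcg
TNF-9 region, chr17:35210438-35210638: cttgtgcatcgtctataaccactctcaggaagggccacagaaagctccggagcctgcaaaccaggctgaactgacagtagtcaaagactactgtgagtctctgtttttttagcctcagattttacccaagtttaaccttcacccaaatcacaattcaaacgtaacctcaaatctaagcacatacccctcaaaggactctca
Ntm intron, chr9:29778270-29778470: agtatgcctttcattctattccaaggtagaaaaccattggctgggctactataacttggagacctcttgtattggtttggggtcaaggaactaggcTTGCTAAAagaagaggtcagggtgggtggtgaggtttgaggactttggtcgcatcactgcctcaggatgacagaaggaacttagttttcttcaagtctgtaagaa
In the Trim25 window, the AP-1 motif began 44 bp before the summit. The Tns3 window held an AP-1 motif 44 bp before the summit and a PU.1 motif 74 bp after it. This window was intergenic and remote from Tns3. Its summit lay at -95533 bp relative to the Tns3 start, where the minus sign means upstream. In the Tex44 window, which lies in GC-rich sequence (65.6% over 400 bp), the NF-kB motif occurred 1 and 49 bp after the summit. The Ntm window held a C/EBP motif that began 4 bp before the summit. None of the 15 motifs was found in the Neat1, Clec4d and TNF-9 windows.

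Members were weak peaks as a class, and their distance from H3K4me1 separated them further. Fold enrichment is the ratio of fragments plus 1 at the summit to the local control plus 1. Its median was 5.16 in members, 5.65 in distal summits within H3K4me1 and 5.59 in promoter peaks. The median −log10 q was 3.1, 4.02 and 4.09. Fold and p-value together gave the number of fragments behind each summit, and this number could be recovered for all 4200 peaks. Members had a median of 7 fragments, against 9 in distal summits within H3K4me1 and 11 in promoter peaks. The lowest number was 5, found in 302 members, another 422 had 6, and 305 (18%, 16.2 to 19.9%) had 10 or more. Their median width was 139 bp, against 157 and 161 bp.

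The share of distal peaks outside H3K4me1 fell with the number of fragments. At 5 or 6 fragments, 724 of 875 distal peaks (82.7%, 80.1 to 85.1%) were members, and 555 of these lay over 10 kb from H3K4me1. At 7 to 9 fragments the share was 53.4% (50.6 to 56.1%), and at 10 or more it was 36.6% (33.4 to 39.9%), where 28 of 834 distal peaks lay over 10 kb from H3K4me1. The part of weak signal in the size of the class was not tested. Among the 100 LPS H3K27ac peaks of highest −log10 q, 24 were members.

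**Figure D1:**
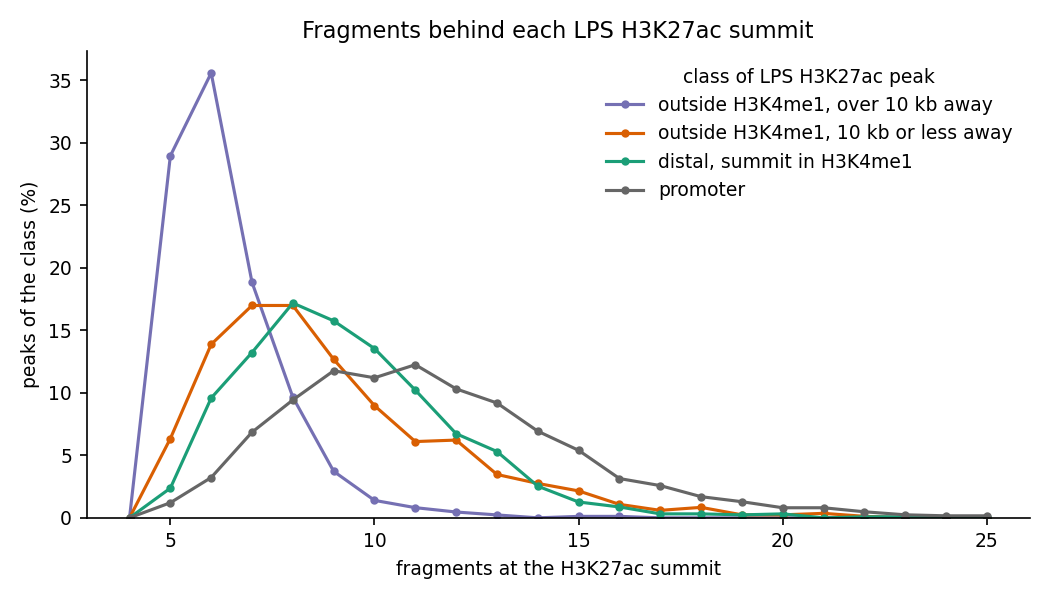
Number of fragments at the summit (x axis) against the share of peaks in percent (y axis) for 4 classes of LPS H3K27ac peak, each a line with 1 point per fragment number, drawn up to 25 fragments. Summits over 10 kb from H3K4me1 peak at 6 fragments, those nearer to H3K4me1 at 7 and 8, distal summits within H3K4me1 at 8 and promoter peaks at 11.

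The distances to H3K4me1 fell into a near and a far group. The median was 10626 bp, and the quartiles were 848 and 130173 bp. H3K4me1 lay within 100 bp of 126 members (7.43%, 6.28 to 8.78%), within 1000 bp of 464 (27.4%, 25.3 to 29.5%) and within 10 kb of 836 (49.3%, 46.9 to 51.7%), while 464 members (27.4%) had none within 100 kb. On a log scale the counts rose to 124 members between 1000 and 1778 bp, dropped to 66 between 5623 and 10000 bp, and rose again to 111 between 31623 and 56234 bp. The split at 10 kb used from here on was placed in this trough after the distances had been seen. The nearest H3K4me1 peak was of the LPS list in 1006 members and of the PBS list, which is the shorter one, in 686.

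**Figure D2:**
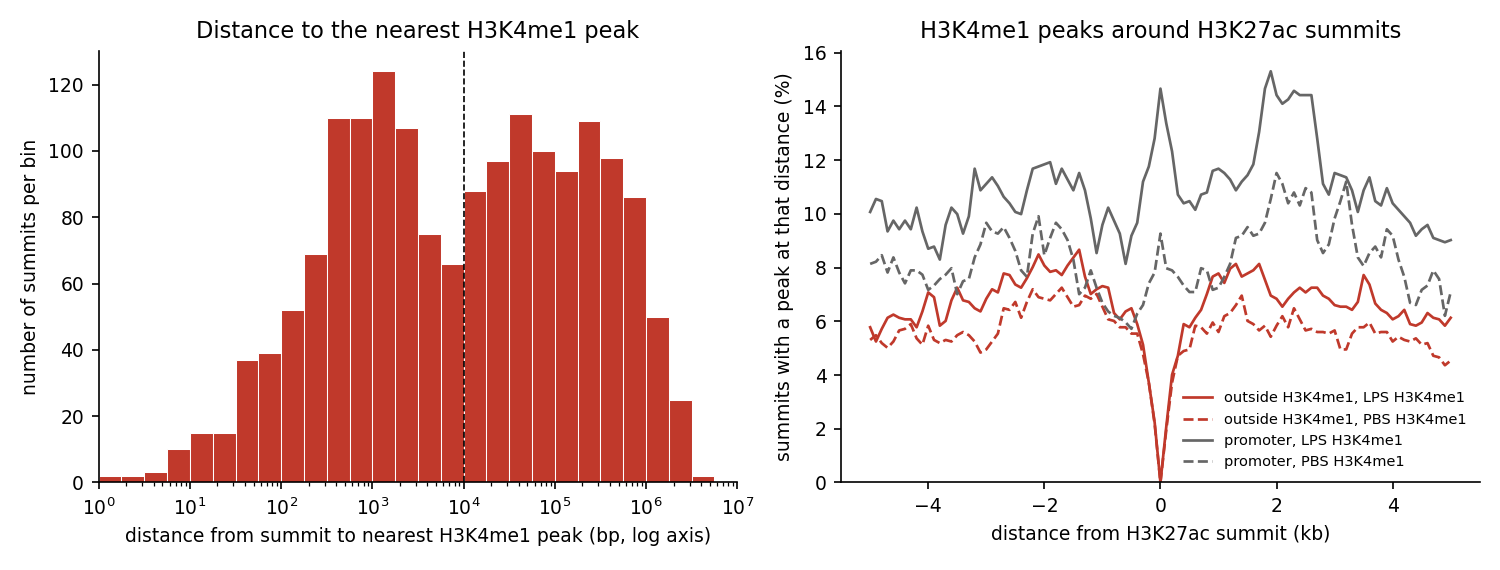
Left, number of members (y axis) by distance in bp from the summit to the nearest H3K4me1 peak of either list (x axis, log scale, 4 bins per factor of 10), with the 10 kb split dashed. Right, share of summits in percent (y axis) with an LPS (solid) or PBS (dashed) H3K4me1 peak at each distance in kb from the H3K27ac summit (x axis), for members and promoter peaks. The counts show a trough of 66 members just below 10 kb, and the coverage of members falls to 0 at the summit because the rule requires it.

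Members close to H3K4me1 sat beside it more often than between blocks of it. An H3K4me1 peak lay within 1000 bp on both sides of the summit in 176 members (10.4%, 9.01 to 11.9%) and on 1 side only in 288 (17.0%, 15.3 to 18.8%). In 114 members a base of the peak, but not its summit, lay in H3K4me1. The H3K4me1 peaks nearest to the 836 near members had a median −log10 q of 5.15 (quartiles 3.76 and 7.62) and a median width of 312 bp. Those that held the 1263 distal summits had a median −log10 q of 8.86 (5.76 and 13.3) and a median width of 818 bp, a difference that the rule itself favors since wide peaks hold a summit more easily. Around members the coverage by LPS H3K4me1 peaks reached 8.67% at 1400 bp before the summit, and around promoter peaks it reached 15.3% at 1900 bp after it, both directions taken along the genome.

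Near and far members differed in signal, in position and in their neighbors, which are given as a description. The 836 near members had a median of 8 fragments and the 860 far members a median of 6. A −log10 q of at least 5 was reached by 219 near members (26.2%, 23.3 to 29.3%) and 64 far members (7.44%, 5.87 to 9.39%). The local control stood at the genome-wide floor, the level that the peak caller uses where no local fragments raise it, in 125 near (15.0%, 12.7 to 17.5%) and 457 far members (53.1%, 49.8 to 56.5%). In gene bodies lay 637 near (76.2%, 73.2 to 79.0%) and 365 far members (42.4%, 39.2 to 45.8%). The median distance to the nearest protein-coding start was 12108.5 bp in near and 109463 bp in far members. Far members also had few neighbors: another H3K27ac summit of any kind lay within 10 kb of 385 near members (46.1%, 42.7 to 49.4%) but of 16 far members (1.86%, 1.15 to 3.0%). Distal summits within H3K4me1 had such a neighbor in 586 cases (46.4%, 43.7 to 49.2%), so near members resembled them in this respect. The contrast of near and far members is partly set by the split. A distal summit within H3K4me1 cannot lie within 10 kb of a far member, and the count was 0 of 860. Most promoter peaks (89.0%) also had H3K4me1 within 10 kb. Counting other members alone, 225 near members (26.9%) and 15 far members (1.74%) had a neighbor within 10 kb.

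Base composition followed the same division. Median GC content over the 400 bp around the summit was 46.4% in near members and 41.8% in far members, against 47.4% in distal summits within H3K4me1, 56.1% in promoter peaks and 41.7% over the whole genome. In the 50 bp at the summit the mean was 48.4% in near and 43.7% in far members, and at 500 bp after it 45.9% and 40.0%, so both groups had a local maximum at the summit and differed in the sequence around it. At least 50% of the bases were repeat-masked in 90 near (10.8%, 8.84 to 13.0%) and 184 far members (21.4%, 18.8 to 24.3%). The same held for 65 distal summits within H3K4me1 (5.15%, 4.06 to 6.51%) and 26 promoter peaks (2.10%, 1.43 to 3.05%). Repeat-masked bases made up 36.4% of the genome, a share of bases that cannot be set against these shares of windows. CpG-rich windows, with GC above 50% and an observed to expected CpG ratio above 0.6, were found in 42 near (5.02%, 3.74 to 6.72%) and 5 far members (0.581%, 0.249 to 1.35%), and in 580 promoter peaks (46.7%, 44.0 to 49.5%).

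**Figure D3:**
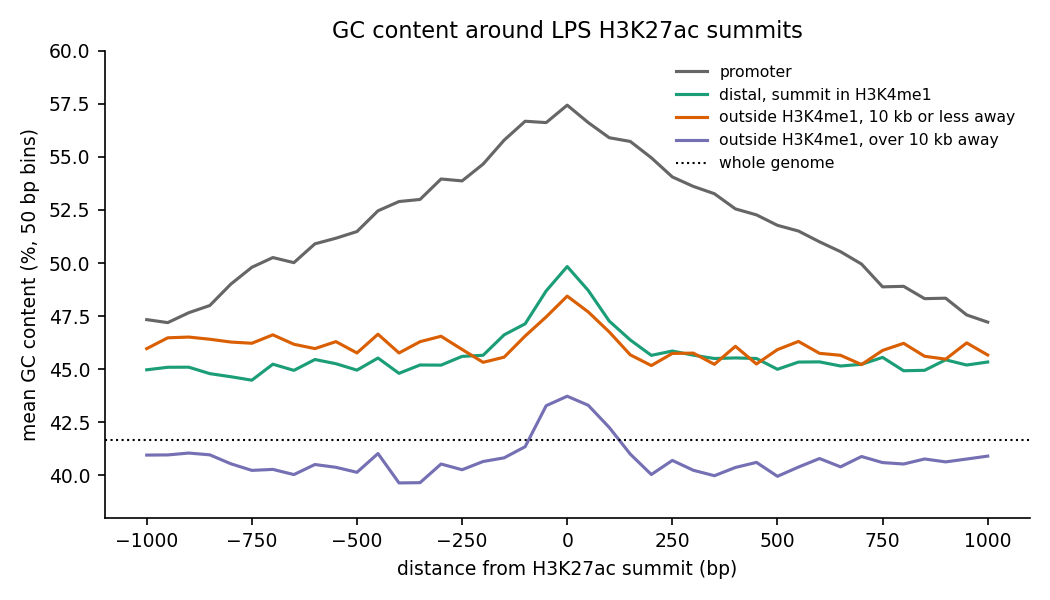
Mean GC content in percent in 50 bp bins (y axis, starting at 38%) by distance in bp from the H3K27ac summit (x axis) for promoter peaks, distal summits within H3K4me1, and members 10 kb or less and over 10 kb from H3K4me1, with the genome average of 41.7% dotted. Far members rise above the genome average only close to the summit, to 43.7%, while near members stay above it throughout and reach 48.4%.

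A large set of members lay just downstream of gene starts. Within 5 kb of the nearest protein-coding start, 245 members were downstream and 64 upstream of it, a downstream share of 79.3% (74.4 to 83.4%). Distal summits within H3K4me1 were divided 88 to 72 (55.0%, 47.3 to 62.5%). The excess was closest to the start: 132 members lay 1 to 2 kb downstream and 25 lay 1 to 2 kb upstream, against 19 and 23 distal summits within H3K4me1. Of the 132, 126 were near members. The rule excluded the first 1000 bp on either side of the annotated gene start but not other transcript starts of the gene, and 214 members (12.6%, 11.1 to 14.3%) came within 1000 bp of such a start. Without them the division within 5 kb was still 152 to 60 (71.7%, 65.3 to 77.3%), against 67 to 69 (49.3%, 41.0 to 57.6%) for distal summits within H3K4me1. The 245 downstream members belonged to 209 genes. A promoter H3K27ac peak was listed at the start in 85 of the 245 cases (34.7%, 29.0 to 40.8%), and in the other cases none was listed within 1000 bp of that start. For the upstream members it was listed in 17 of 64 cases (26.6%, 17.3 to 38.5%), and the 2 intervals overlap. This measure was chosen after the positions had been seen. It was not computed for all protein-coding starts or for starts near distal summits within H3K4me1, so 34.7% cannot be called high or low.

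**Figure D4:**
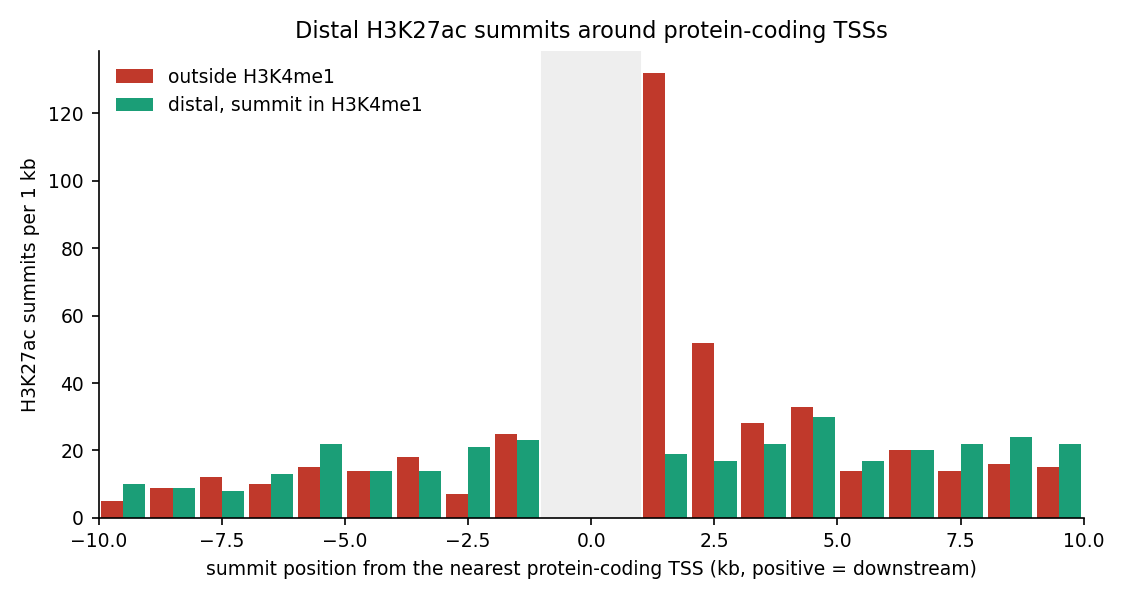
Number of summits per 1 kb (y axis) by position in kb from the nearest protein-coding TSS (x axis, positive downstream) for members and for distal summits within H3K4me1; the gray band is the 1 kb on either side of the TSS, which the rule leaves out. The 132 members at 1 to 2 kb downstream stand out from the 25 on the upstream side and from the 19 distal summits within H3K4me1.

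The 10 members with the highest −log10 q were mostly intronic, 9 of the 10 lay in gene bodies and 9 within 10 kb of H3K4me1. The first was the site upstream of Neat1, the long noncoding RNA that builds nuclear paraspeckles. Its summit lay 2040 bp upstream of the Neat1 start, had 22 fragments, an 11.6-fold enrichment and 16.7 as its −log10 q, ranked 12 of 4200, and was also the second widest member at 941 bp. The nearest H3K4me1 peak was 10194 bp away, which made it the strongest far member as well. Neat1 was named after the values had been seen, as the nearest annotated start is that of the transcript Frmd8os. The next was a site of 16 fragments and fold enrichment 12.5 in a noncoding exon on chromosome 13, 14 bp from a PBS H3K4me1 peak. The Trim25 site had 21 fragments and a fold enrichment of 11, and its summit lay 1274 bp inside Trim25, which encodes a ubiquitin ligase of antiviral RIG-I signaling. The Clec4d site had 16 fragments and a fold enrichment of 12.0.

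The remaining 6 were as follows. In Evl, an actin regulator, the peak overlapped a transcript start, with 17 fragments and a fold enrichment of 11.3. In Rnf11, a partner of the NF-kB inhibitor A20, 16 fragments gave a fold enrichment of 11 at 480 bp from a transcript start. Rhbdf2 encodes iRhom2, which macrophages need to release TNF from their surface, and its member lay 10287 bp inside the gene with 19 fragments and a fold enrichment of 9.95, 71 bp from a PBS H3K4me1 peak. The sites in Frrs1 and Gmfg had 14 and 17 fragments and fold enrichments of 10.9 and 10.2. The Tex44 site, 8438 bp downstream of its start, had 21 fragments over a higher control and a fold enrichment of 8.78. In all, 4 of the 10 came within 1000 bp of an annotated transcript start.

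The widest member, 1166 bp, lay in Spi1, the gene of PU.1. It had 20 fragments but a fold enrichment of only 5.24, since the control there was 3.01 fragments, and it overlapped an annotated transcript start inside the gene, with the summit 14661 bp from the gene start. The other wide members were the sites at Neat1 and on chromosome 13 just described, a site of 792 bp in the noncoding gene 2310001H17Rik, 42904 bp from the start of Cd69, and a site of 767 bp in Chmp4b, an ESCRT-III subunit. Both had H3K4me1 within 500 bp, at 67 and 477 bp.

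Most members stood alone, and a limited number formed clusters. Another member lay within 10 kb of 240 members (14.2%, 12.6 to 15.9%). Of distal summits within H3K4me1, 431 (34.1%, 31.6 to 36.8%) had another of their own class within 10 kb. Chained over gaps of at most 10 kb, 1456 members stood alone, 84 groups held 2, 17 held 3, 4 held 4 and 1 held 5. The group of 5 lay in Ctsb, the gene of the lysosomal protease cathepsin B, over 11813 bp, at 1996 to 13767 bp from the gene start, with 7 to 15 fragments. H3K4me1 lay 50, 533 and 1495 bp from 3 of its summits. In the first part of Clec4d, a C-type lectin receptor of myeloid cells, 4 members spanned 1951 bp, with 8 to 16 fragments and H3K4me1 at 2491 bp or more. Promoter H3K27ac peaks flanked the Clec4d start on both sides, and none was listed at the starts of Ctsb and Mcl1. At Mcl1, an inhibitor of apoptosis, 3 members lay 5298 to 7330 bp upstream and 1 lay 1482 bp downstream, each with 8 to 10 fragments and interleaved with distal summits within H3K4me1.

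Another group of 4 lay over 1824 bp in Rtp4, an interferon-induced chaperone of cell surface receptors, with 8 to 17 fragments. The annotated gene start is far upstream, but 2 of the 4 peaks came within 195 and 98 bp of other Rtp4 transcript starts, and the remaining ones lay 1121 and 1361 bp from them. The last group of 4 lay in the noncoding gene Lncpint over 12346 bp, with 8 to 10 fragments and H3K4me1 at 52 to 946 bp. By gene body, Ctsb, Cflar, Zeb2 and 2010111I01Rik held 5 members each, and Clec4d, Mbnl1, Pik3ap1, Rtp4 and Snx10 held 4 each. Cflar encodes an inhibitor of caspase-8, and Zeb2 encodes a transcriptional repressor.

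**Figure D5:**
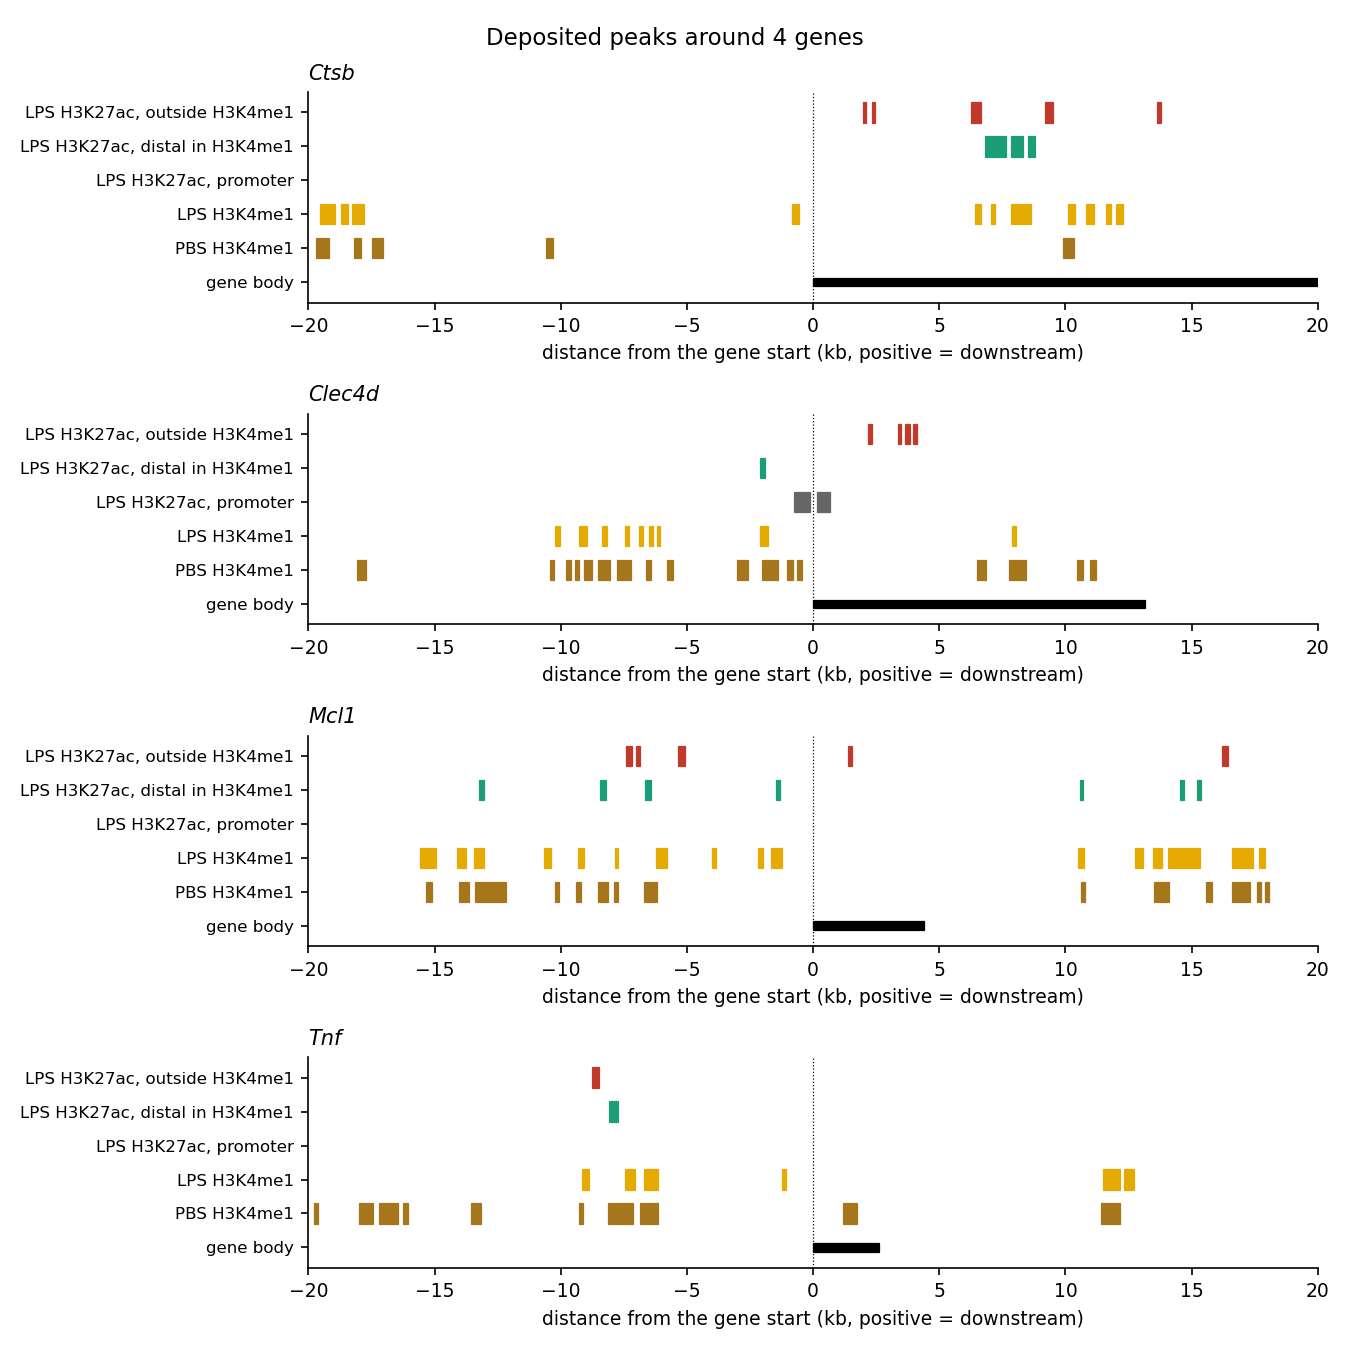
Deposited peaks around the starts of Ctsb, Clec4d, Mcl1 and Tnf, drawn to scale as distance in kb from the gene start in the direction of transcription (x axis), with rows for the 3 classes of LPS H3K27ac peak, for LPS and PBS H3K4me1 peaks and for the gene body. Members lie inside Ctsb and Clec4d, on both sides of Mcl1, and 8531 bp upstream of Tnf between H3K4me1 peaks.

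LPS response genes were next compared with all protein-coding genes, using gene lists that had been in use in an earlier analysis of these data. A member lay within 10 kb of the start of 462 of 22028 protein-coding genes (2.1%), and of 391 of the 11284 that had an H3K4me1 peak within 10 kb (3.47%). Of 40 primary LPS response genes, 7 had one (17.5%, 8.75 to 31.9%), and all 7 were among the 38 with H3K4me1 within 10 kb (18.4%, 9.22 to 33.4%). They were Tnf, Ccl4, Junb, Zfp36, Nfkbia, Tnfaip3 and Klf6. A distal summit within H3K4me1 lay near 6 of the 40. Late or interferon response genes had a member in 2 of 33 cases (Cxcl10 and Ccl5), macrophage identity genes in 4 of 30 (Cd14, Fcer1g, Ctsb and Runx1), TLR4 and NF-kB pathway genes in 4 of 39 (Cd14, Irak2, Nfkbia and Tnfaip3), and genes of other tissues in 0 of 30, an upper limit of 11.4%. Nfkbia, Tnfaip3 and Cd14 were on more than 1 of these lists. A distal summit within H3K4me1 lay near 1 of the 33 late or interferon genes and 8 of the 30 identity genes. For pathway genes the count was 6 of 39, and for other tissues 0 of 30. The share of all protein-coding genes near such a summit was not computed.

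With the limit at 100 kb, 3182 of 22028 genes had a member (14.4%). The counts were 13 of 40 primary response genes (32.5%, 20.1 to 48.0%), 14 of 33 late or interferon response genes (42.4%, 27.2 to 59.2%), 12 of 30 macrophage identity genes (40.0%, 24.6 to 57.7%), 10 of 39 TLR4 and NF-kB pathway genes (25.6%, 14.6 to 41.1%) and 3 of 30 genes of other tissues (10.0%, 3.46 to 25.6%). Distal summits within H3K4me1 lay within 100 kb of 18, 6, 18, 12 and 1 genes of these lists, in the same order. Genes that share a locus, such as Ccl3 and Ccl4, Il1a and Il1b, and Ifit1, Ifit2 and Ifit3, could count the same member, and wide intervals follow from the short lists. Because the PBS H3K27ac list held 52 peaks, a member with no PBS counterpart cannot be called gained after LPS.

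Among ligands of the response, members were found at 4 listed genes. Tnf encodes the cytokine TNF. Its member had 11 fragments, a fold enrichment of 7.26 and rank 511, and was the farther peak of the TNF-9 enhancer, 8531 bp upstream. LPS H3K4me1 lay 356 bp and PBS H3K4me1 423 bp from its summit. The protein-coding start nearest to this summit was that of Lta, the gene of lymphotoxin alpha, and not that of Tnf. By a score that predicts links between enhancers and genes, the paper ranked this enhancer higher for Lta than for Tnf. Ccl4, a chemokine that attracts monocytes and T cells, had 7 fragments at 1388 bp upstream and 6 at 1681 bp downstream, within its intron. The members near the chemokine genes Ccl5 and Cxcl10 had 8 fragments each and lay 4551 and 8959 bp upstream, the latter in an intron of Art3.

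Nfkbia, Tnfaip3 and Zfp36 limit the response, and each had a member within 10 kb. Nfkbia encodes IkBa, which holds NF-kB in the cytoplasm, and had 8 fragments in an intron 1227 bp from the start. Tnfaip3 encodes the ubiquitin editor A20 and had 8 and 7 fragments at 2201 and 1284 bp, with PBS H3K4me1 at 1492 and 2409 bp and LPS H3K4me1 at 17581 and 18011 bp. Zfp36 encodes a protein that destabilizes Tnf mRNA, and 2 members with 12 and 14 fragments lay 3237 and 6240 bp upstream of it. Both were inside other genes, the nearer in an intron of Gm44710 and the farther in an untranslated exon within Gm44710 and Med29.

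Junb, Klf6 and Runx1 encode transcription factors, and their members are given next. Junb, an AP-1 subunit, had 15 fragments at 1326 bp over a control of 2.51 fragments, for a fold enrichment of 4.56. Klf6, a zinc finger factor, had 12 and 13 fragments at 1858 and 2154 bp, with fold enrichments of 7.1 and 5.59. Runx1, needed for blood cell formation, had 9 fragments at 1310 bp.

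Among receptors and signaling genes, Cd14, the co-receptor that passes LPS to TLR4, had a member of 7 fragments 3375 bp from its start on chromosome 18, beyond the gene. Irak2, a kinase downstream of the receptor, had 9 fragments in an intron at 5876 bp, with H3K4me1 of both lists within 646 bp. Fcer1g, the signaling chain of Fc receptors, had 9 fragments in an intron at 2236 bp. Every member near a list gene had an H3K4me1 peak of at least 1 of the lists within 5 kb of its summit. Over all members, 753 (44.4%, 42.0 to 46.8%) had such a peak within 5 kb. Of the 439 members within 10 kb of any protein-coding start, 380 had H3K4me1 within 10 kb, so closeness to H3K4me1 was not particular to list genes.

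Exact motif matches on either strand within 100 bp of the summit were counted for 15 motifs, each on its own even where 2 motifs overlapped. PU.1 (GAGGAAGT) was found in 24 members (1.42%, 0.953 to 2.10%), in 47 distal summits within H3K4me1 (3.72%, 2.81 to 4.91%) and in 2.21% of all LPS H3K27ac peaks. AP-1 (TGAGTCA) was found in 67 (3.95%, 3.12 to 4.99%), 72 (5.70%, 4.55 to 7.12%) and 4.05%. The NF-kB motif was found in 82 (4.83%, 3.91 to 5.96%), 89 (7.05%, 5.76 to 8.59%) and 7.14%. For C/EBP (TTGCNNAA) the shares were 7.84%, 8.47% and 7.19%, and for the interferon response element (GAANNGAAA) 6.31%, 8.47% and 6.79%, with overlapping intervals for members and distal summits within H3K4me1. For PU.1 the intervals of members and distal summits within H3K4me1 did not overlap, whereas those for AP-1 and NF-kB overlapped slightly.

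Promoter-type motifs were rare in members and in distal summits within H3K4me1. SP and KLF (GGGGCGGGG) was found in 10 members (0.590%, 0.321 to 1.08%) and 44 promoter peaks (3.55%, 2.65 to 4.73%), ETS (CCGGAAGT) in 5 and 23, YY1 (AAGATGGCG) in 5 and 17, NRF1 (GCGCATGCG) in 1 and 5, the TFE and USF motif (TCACGTGA) in 1 and 12, EGR (GCGTGGGCG) in 0 and 5, and CRE (TGACGTCA) in 4 and 7. In distal summits within H3K4me1, SP and KLF was found in 5 (0.396%, 0.169 to 0.923%) and ETS in 5. NRF1 and the TFE and USF motif were found there in 1 each, and YY1, EGR and CRE in 0. The CTCF core (AGGGGGC) was found in 35 members (2.06%, 1.49 to 2.86%) and 72 promoter peaks (5.80%, 4.63 to 7.24%). For distal summits within H3K4me1 the count was 39 (3.09%, 2.27 to 4.19%). The box TATAAA was found in 12.1% of members (10.7 to 13.8%), against 9.14% of all LPS H3K27ac peaks. Distal summits within H3K4me1 held it in 9.18% and promoter peaks in 5.00%. RUNX (TGTGGTTT) was found in 2.36% of members (1.74 to 3.20%) against 1.64% of all LPS H3K27ac peaks. Near and far members held PU.1 in 1.44% and 1.4% and AP-1 in 3.95% each, while TATAAA was found in 10.3% and 14% of them. The classes differed in GC content, as given above, and the part of base composition in the motif shares was not tested.

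Strong far members were few. Apart from the Neat1 site, the strongest were at Rsg1 (12 fragments, 3333 bp upstream, 67.8% of its bases repeat-masked), in introns of Mvb12b and Slc3a2 (13 and 12 fragments) and in Ntm, which encodes a neural adhesion molecule. The Ntm site had 11 fragments, a fold enrichment of 8.13 and its nearest H3K4me1 peak 649273 bp away, and its C/EBP match is in the sequence shown above. The Slc3a2 peak, in the gene of an amino acid transporter subunit, came within 31 bp of a transcript start although the gene start was 10642 bp away. The 5 members most remote from H3K4me1 lay 2918251 to 3268563 bp from it, on chromosomes 1, 6 and 8, all intergenic, with 5 to 8 fragments and fold enrichments of 4.42 to 5.16.

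By chromosome, members made up 51% (chromosome 19) to 72.8% (chromosome 18, 67 of 92) of the distal peaks of an autosome. On the X chromosome they made up 39 of 47 (83.0%, 69.9 to 91.1%), and 25 of the 39 were far members. Per Mb, however, the X chromosome had the fewest members, 0.228 against 0.518 to 0.901 on the autosomes. The X chromosome also had the lowest density of H3K4me1 peaks, 8.09 per Mb in the LPS and 6.50 per Mb in the PBS list, against 22.8 to 35.7 and 20.4 to 30.8 per Mb on the autosomes. The part of this H3K4me1 density in the share was not tested.

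Of all members, 2 were overlapped by a PBS H3K27ac peak (0.118%, 0.0323 to 0.429%), against 5 distal summits within H3K4me1 and 8 promoter peaks. They lay 1299 bp inside Erf, an ETS family repressor, with 9 fragments, and 1670 bp inside Anp32a with 10 fragments, both in GC-rich introns (74.6% and 61.1%).

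At the limits of the rule, the peaks nearest to a gene start among members lay 1001 bp from that of Ptprc (8 fragments) and 1003 bp from that of Ube2f (13 fragments). The nearest excluded ones lay 997 bp from A930035D04Rik and 994 bp from Calcrl, with 8 and 7 fragments. At the H3K4me1 limit, the summits near Nanos3 (14 fragments) and Rassf2 (11 fragments) lay 1 bp outside a peak, and those near Kank3 (7 fragments) and Abhd12b (8 fragments) lay on the first and second base inside it.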

How the data were processed

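CUT&RUN for H3K4me1, H3K27ac and IgG was profiled by the study in BMDMs given LPS or PBS for 1 h, and groups follow the sample labels. The 4 H3K4me1 and H3K27ac lists were used, and the 2 IgG libraries were not used here. After trimming, read pairs were mapped by the authors with Bowtie2 2.4.4 (GRCm38), blacklisted regions were removed, and MACS2 2.2.7.1 called peaks in each library separately. The control used for each list is not given in the sources used here. In each deposited list the score column was not used. The deposited fold enrichment is the ratio, computed by the authors' peak caller, of fragments plus 1 to the local control plus 1 at the summit. The deposited −log10 p-value and −log10 q-value also refer to the summit, and the smallest −log10 q of the LPS H3K27ac list was 2.02. The deposited summit is an offset in bp from the peak start.

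The fragments and the local control at each LPS H3K27ac summit were solved from fold enrichment and p-value, within 0.002 for 4200 of 4200 peaks, and 23 peaks had more than 1 solution. The method was tested on simulated data. Total depth is unknown. The most frequent control level was 0.357 fragments. Genes came from GENCODE M21, another release than the authors used, and distances run from the summit to the start of a gene, or from the peak edge for the promoter limit and for transcript starts. GC content and soft-masked repeats were read in 200 bp, and motifs in 100 bp, on either side of the summit. Calculations used Python 3.11.15, numpy 2.4.6, pandas 2.3.3 and scipy 1.17.1. Members named are the 10 of highest −log10 q, the 5 widest, those overlapping a PBS H3K27ac peak, the 5 largest clusters, those within 10 kb of a list gene and those at the limits of the rule, and the strongest and most remote far members were added after the data were seen. Gene lists comprised 40 primary LPS response, 35 late or interferon response (33 matched), 30 macrophage identity, 30 other tissue and 39 TLR4 and NF-kB pathway genes. Members and lists were chosen with earlier results of these data known. Alternatives covered the definition of outside, both q limits, the promoter limit, transcript starts, repeats and the window.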

Additional observations from a re-analysis of the deposited data

How the results depend on the processing

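Alternatives were run for the members alone, so differences from the comparison classes and between near and far members were not rerun. The share of all protein-coding genes with a member within 100 kb, 14.4% for the full set, was not rerun either. The shares of primary response genes below therefore have no such share to be set against. The number of members changed most with the H3K27ac threshold. The share with H3K4me1 within 1 kb rose most with that threshold and fell most with the extension of H3K4me1 peaks. The fall is partly set in advance, since the extension removes members within 500 bp of H3K4me1. With a −log10 q of at least 5 for H3K27ac there were 283 members, the share of distal peaks outside H3K4me1 was 41.9%, 47.7% of members had H3K4me1 within 1 kb, 22.6% were over 10 kb from it, median GC was 46.6%, 8.13% were mostly repeat-masked and 10.0% of primary LPS response genes had a member within 100 kb. With a −log10 q of at least 5 for H3K4me1, the share outside was 62.8% and 24.2% had H3K4me1 within 1 kb. With no base of the peak in H3K4me1, the share outside was 53.5%, and 22.1% and 54.4% of members were within 1 kb and over 10 kb. With H3K4me1 peaks extended by 500 bp these values were 46.2%, 9.94% and 62.9%, and median GC was 43.1%. With a promoter limit of 2500 bp the share outside was 55.4%, 25.2% were within 1 kb, 57.6% over 10 kb, 69.8% of those within 5 kb of a TSS were downstream, median GC was 43.1% and 20.0% of primary response genes had a member within 100 kb. With every annotated transcript start, 56.7% were over 10 kb, 71.7% downstream, median GC 43.1% and 18.2% mostly repeat-masked. Without mostly repeat-masked peaks the share outside was 54.3% and 47.5% were over 10 kb. In a window of 50 bp on either side, median GC was 45.5% and 18.7% were mostly repeat-masked. The other 27 values moved by less than their counting interval or, for the number of members, stayed within 1.5 times. Of 37 alternatives for the remaining results, 11 moved. No paired analysis was possible because each antibody and treatment had 1 library. With a median of 7 fragments per summit, a peak's presence in 1 list and absence from another has no replicate check, and the PBS H3K27ac list is too short to show loss or gain.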
